A study of Mus musculus with 26 samples.

Results

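Old islets cultured at 11 mM glucose were compared with old islets cultured at 3 mM glucose, across all genes measured. The members are the 4 samples whose titles name old islets at G11 (2 samples) and at G3 (2 samples), out of 26 samples in the series. The study cultured pancreatic islets of young and old mice at several glucose concentrations and measured their RNA on Affymetrix arrays. The comparison asks which genes of the aged islet follow the glucose concentration.

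Per the labels, both groups are islets of wild-type C57BL6 male mice aged 56 weeks, and neither carries a transgene. After isolation the cultured islets spent 1 day of recovery in RPMI medium with serum at 11 mM glucose, followed by 2 days at the stated concentration, so the group at 3 mM is a step down from the recovery medium. Values of old islets at 5.5 mM glucose and of fresh old islets (2 samples each) are given beside them. Young islets (5 weeks) at 3 and 11 mM serve for 1 test of a difference in response. The replicates are named biological, but nothing in the labels tells whether islets of several mice were combined. The p-values therefore reflect only how far these samples differ, which may be technical in origin. An islet holds several endocrine cell types and other cells, and in such bulk samples fewer cells of a type and less RNA per cell cannot be told apart.

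The beta cell takes up glucose through a high-capacity transporter, phosphorylates it and burns it, and the rise in ATP closes potassium channels, opens calcium channels and releases insulin. Over days, glucose also sets the expression of the genes for this machinery, in part through the glucose-sensing transcription factor ChREBP. Glucose outside the range to which islets are adapted is known to engage stress responses, among them the arm in which the transcription factor ATF4 induces CHOP (Ddit3) and its targets.

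Across genes the 2 arrays at 3 mM correlated at 0.988 and the 2 at 11 mM at 0.983, and arrays of the different concentrations at 0.955 to 0.96 (genes are not independent replicates). The 16 probe sets of hybridization controls, transcripts added in fixed amounts to every sample, differed between the groups. All 16 had higher signals on both 11 mM arrays than on both 3 mM arrays, by 0.22 to 0.64 on the log2 scale with a median of 0.36. For the cre-3 control the signals were 6483 and 6314 at 3 mM, 6952 and 7160 at 5.5 mM, and 8774 and 8089 at 11 mM. Whether this belongs to the arrays or to the amount of labelled RNA was not tested. Scaling the arrays to these controls lowered the median change of all genes from 0.04 to -0.28. It left 131 genes past the threshold (22 higher and 109 lower) in place of 1734 (976 higher and 758 lower). The controls also differed within groups, with cre-3 signals of 9823 and 6649 in fresh old islets, so the scaling changes the spread too. Pcx and Itpkb were among the rises that lost their calls by it (adjusted p = 0.297 and 0.194 by limma). Over 16 alternative ways of processing their log2 changes were at least 1.19 and 1.49. The scaling shifts all genes of an array together, so a large change that stays above 0 does not uphold a call.

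The samples carried the markers of islets. The 8 tested beta cell markers summed to a signal of 20991 and 22727 at 3 mM and of 45556 and 37653 at 11 mM, so the groups did not overlap. This sum includes Slc2a2 and G6pc2, which rose, and Ins2, which did not pass. Among single genes, 33.8% were without overlap with 11 mM higher. The 4 tested alpha cell markers summed to 17035 and 18368 at 3 mM and to 24626 and 20649 at 11 mM, and none of them passed the test. These sums did not overlap either, nor did those of the delta cell markers (9301 and 10636 against 11657 and 12622). The sums of the pancreatic polypeptide cell markers were likewise apart (16718 and 19329 against 22159 and 19578). Glucagon (Gcg) had signals of 8136 and 9457 at 3 mM and of 11615 and 10041 at 11 mM (log2 change 0.30, SE 0.23, adjusted p = 0.463 by limma). Somatostatin (Sst, log2 change 0.37, SE 0.18) and transthyretin (Ttr, 0.42, SE 0.23) likewise did not pass, and all of these hormone gene values lie within the range by which the hybridization controls differed.

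Few markers of other cells passed the test. The 17 tested acinar markers summed to 480 and 1174 at 3 mM and to 769 and 1275 at 11 mM, so the groups overlapped, against 29370 and 55083 in fresh islets. Among them Bhlha15, a secretory cell transcription factor, rose (log2 change 1.55, SE 0.40, adjusted p = 0.0138) and Rnase1 fell (-1.36, SE 0.42, adjusted p = 0.0355). Neither passed after any 1 of the 4 arrays was left out (adjusted p of 0.0571 to 0.111 and 0.0677 to 0.227). No marker of endothelial cells (10 tested), of stellate cells and fibroblasts (12), of ducts (5) or of delta cells (3) passed in limma, where 2 endothelial and 1 ductal marker had an unadjusted p under 0.05. Of 11 macrophage markers only C1qa, a complement subunit, rose, with signals of 524 and 367 at 3 mM and of 1180 and 1136 at 11 mM (log2 change 1.37, SE 0.27, adjusted p = 0.00227).

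Of 12580 genes tested with limma, 1734 (13.8%) changed between 11 and 3 mM at an adjusted p under 0.05. Of these 976 (7.76%) rose and 758 (6.03%) fell. The 2 arrays of a group lay wholly above or below the 2 of the other for each of the 1734, and also for 33.8% of all genes with 11 mM higher and 26.2% with 11 mM lower. Changes ran from -3.16 to 3.12 on the log2 scale, and 281 rises and 175 falls were at least 2-fold. Leaving out single arrays gave 540 without replicate 1 at 3 mM, 948 without replicate 2 at 3 mM, 929 without replicate 1 at 11 mM and 842 without replicate 2 at 11 mM.

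**Figure D1:**
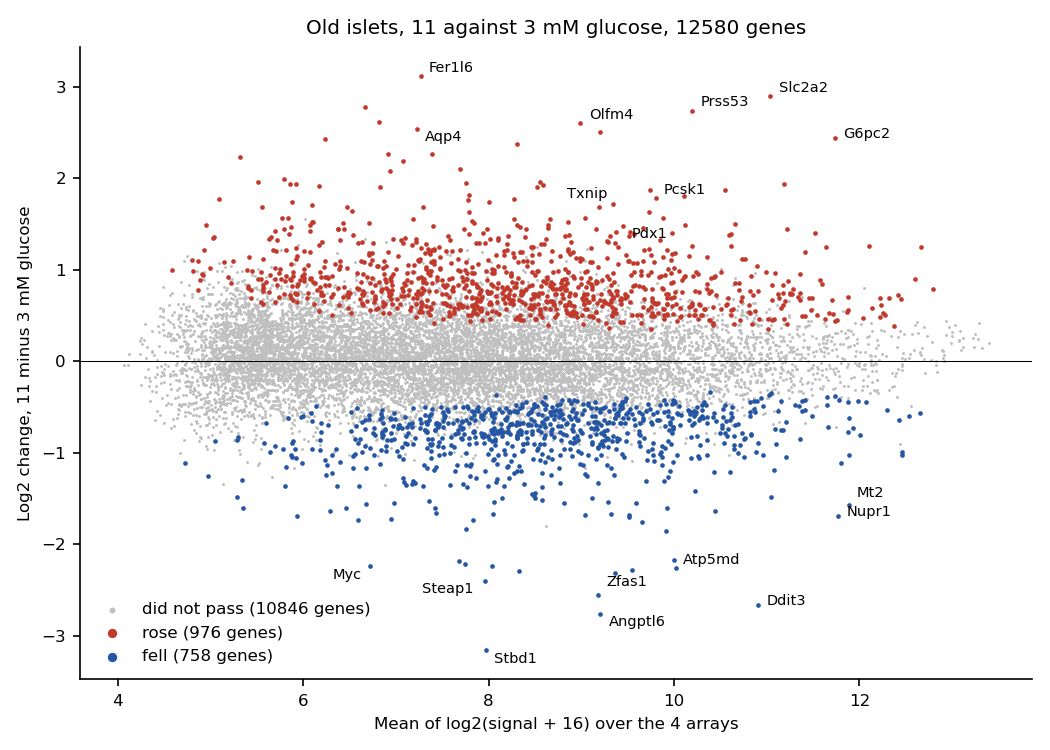
Each point is a gene, with the mean of log2(signal + 16) over the 4 arrays on the x axis and the log2 change from 3 to 11 mM glucose on the y axis. The 976 genes that rose are red, the 758 that fell are blue, and the named genes at the edges run from Stbd1 at -3.16 to Fer1l6 at 3.12.

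Among the 20 largest rises at 11 mM were the genes of a glucose transporter and a glucose phosphatase of the beta cell. Slc2a2, the glucose transporter of the beta cell, had signals of 817 and 695 at 3 mM, 2520 and 2460 at 5.5 mM, 6884 and 4765 at 11 mM and 7189 and 5715 in fresh islets. Both arrays at 11 mM lay above all others in culture, and the log2 change was 2.90 (SE 0.37, adjusted p = 5.64e-05). G6pc2, the islet glucose-6-phosphatase, had 1321 and 1585 at 3 mM, 4754 and 5352 at 5.5 mM, and 8120 and 7738 at 11 mM. Its log2 change was 2.44 (SE 0.27, adjusted p = 1.27e-05), and the groups stood in the order of the glucose concentration without overlap.

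Fer1l6, a member of the ferlin family of membrane proteins, had the largest rise, from 41 and 32 at 3 mM through 121 and 132 at 5.5 mM to 423 and 453 at 11 mM (log2 change 3.12, SE 0.32, adjusted p = 6.59e-06). Prss53, which encodes a serine protease, went from 434 and 439 through 999 and 1011 to 2922 and 3115 (2.74, SE 0.28, adjusted p = 6.38e-06). In both genes the 3 concentrations were clearly apart on every array. Aqp4, a water channel, had 35 and 59 at 3 mM and 353 and 337 at 11 mM (2.54, SE 0.21, adjusted p = 3.78e-07). Its other probe sets gave 0.28 to 1.36. Olfm4, a secreted glycoprotein, had 213 and 170 at 3 mM and 1300 and 1176 at 11 mM (2.60, SE 0.29). Fkbp1b, which binds calcium release channels, rose by 2.50 (SE 0.30), and Cib3, of the family of calcium and integrin binding proteins, by 2.78 (SE 0.38) from signals of only 19 and 27.

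The other named rises were Fmo1 (2.61), a flavin monooxygenase, Phactr1 (2.37), Cbs (2.27), which makes cystathionine from homocysteine, Plut (2.26), a noncoding RNA beside Pdx1, and Kcnf1 (2.23), a potassium channel subunit. They were followed on the log2 scale by Dapl1 (2.19), the membrane mucin Muc4 (2.10), Pdyn (2.08), which encodes the dynorphin precursor, Ttyh1 (1.99), the inositol trisphosphate kinase Itpkb (1.96) and Bambi-ps1 (1.96), a pseudogene whose probe set may also read its parent gene. Kcnf1 and Bambi-ps1 were near the bottom of the signal range at 3 mM (1 and 4, and 11 and 4). Cbs lost its call when either 3 mM array was left out (adjusted p of 0.0817 for replicate 1 and 0.0671 for replicate 2) and when replicate 2 of the 11 mM group was (0.0896), and Ttyh1 did not without replicate 1 at 3 mM or replicate 2 at 11 mM (0.0739 and 0.0555).

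The 20 largest falls included Stbd1, Angptl6, Ddit3 and Zfas1. Stbd1, a protein that tethers glycogen to membranes, had signals of 765 and 704 at 3 mM, 519 and 394 at 5.5 mM, 71 and 65 at 11 mM and 10 and 21 in fresh islets. Its log2 change of -3.16 (SE 0.28, adjusted p = 1.01e-06) was the largest fall. Angptl6, a secreted angiopoietin-like protein, had 1469 and 1572 at 3 mM, 1756 and 1374 at 5.5 mM and 207 and 214 at 11 mM (-2.76, SE 0.22, adjusted p = 3.78e-07). Its arrays at 3 and 5.5 mM overlapped and both lay far above 11 mM. Ddit3, which encodes CHOP, had 5125 and 4540 at 3 mM, 3571 and 2209 at 5.5 mM and 649 and 864 at 11 mM (-2.66, SE 0.27, adjusted p = 6.38e-06).

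Zfas1, a noncoding RNA that hosts small nucleolar RNAs, had the smallest adjusted p among the named falls. Its signals were 1347 and 1439 at 3 mM, 524 and 446 at 5.5 mM and 223 and 225 at 11 mM (-2.55, SE 0.17, adjusted p = 3.24e-08). Steap1, a metalloreductase, had 570 and 542 at 3 mM, 716 and 469 at 5.5 mM and 96 and 89 at 11 mM (-2.40, SE 0.21). Cyb5r1, a cytochrome b5 reductase, fell by 2.32 (SE 0.18) and likewise had overlapping arrays at 3 and 5.5 mM. The growth regulator Myc (-2.24, SE 0.31) had 206 and 221 at 3 mM and 33 and 32 at 11 mM, and Dusp4 (-2.22, SE 0.44), a phosphatase of MAP kinases, fell too.

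The remaining named falls on the log2 scale were Dnajc17 (-2.24), Entpd2 (-2.18), an enzyme that degrades extracellular ATP, Atp5md (-2.17), a subunit of the ATP synthase, Supt3 (-1.74) and Niban1 (-1.73), with Depp1 (-2.29), a FoxO target, Hspa1b (-2.26), an inducible heat shock protein, and the small nucleolar RNA hosts Snhg1 (-1.86), Snhg6 (-1.76) and Snhg16 (-1.72). Depp1 did not pass without replicate 1 at 3 mM or at 11 mM (adjusted p = 0.128 and 0.061), Snhg1 without the same arrays (0.0751 and 0.0529), and Hspa1b without replicate 1 or 2 at 3 mM or replicate 1 at 11 mM (0.0786, 0.182 and 0.244). Hspa1b has a near-identical copy, Hspa1a, and the array may not separate them. Another probe set of Snhg16 gave 0.13 on the log2 scale, and another of Dnajc17 gave -0.08, with which Dnajc17 did not pass as a mean (-1.16). Other probe sets of Snhg1 ran from -2.26 to -0.04.

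**Figure D2:**
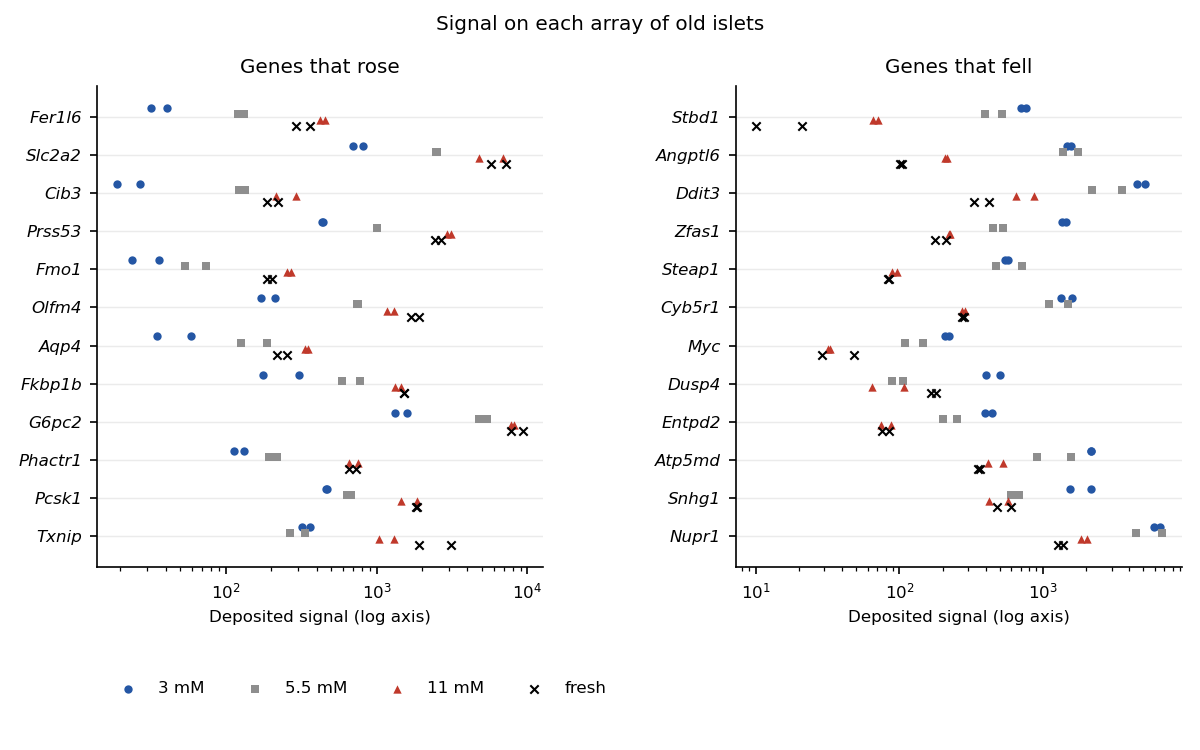
Deposited signal (log x axis) of 12 genes that rose and 12 that fell, with 1 point per array of old islets at 3 mM, 5.5 mM and 11 mM glucose and in fresh islets. Slc2a2, G6pc2 and Zfas1 at 5.5 mM lie between 3 and 11 mM, while Txnip, Angptl6, Steap1 and Cyb5r1 at 5.5 mM overlap or adjoin 3 mM.

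Old islets at 5.5 mM placed these genes differently. The comparison of 5.5 with 3 mM shares the 3 mM arrays with the main one, so its values are set beside it without a test of the difference, and 0.66% of genes changed in it. Olfm4 (log2 change 1.88, adjusted p = 0.00489), G6pc2 (1.79, adjusted p = 0.00489), Slc2a2 (1.70, adjusted p = 0.0376), Aqp4 (1.46) and Muc4 (1.44) had risen by 5.5 mM. Zfas1 (-1.50, adjusted p = 0.000289), Snhg16 (-1.43), Dusp4 (-2.04) and the proteasome activator gene Psme3 (-1.18) had fallen by then. By contrast Angptl6 (0.03, adjusted p = 0.987), Steap1 (0.06), Nupr1 (-0.20), Pdyn (-0.17) and Txnip (-0.18) were near their 3 mM level at 5.5 mM and changed by 11 mM. Fresh islets, which were never cultured, were nearer to 11 than to 3 mM, with array correlations of 0.954 to 0.959 against 0.923 to 0.93.

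Genes that handle glucose rose in part. Of 24 tested members of the list of glucose use, 6 rose and 1 fell (29.2% called, against 13.8% of all genes). The median log2 change was 0.36 against 0.04 over all genes. Beside Slc2a2 and G6pc2, Pcx, the pyruvate carboxylase that feeds the citric acid cycle, had signals of 209 and 233 at 3 mM and 688 and 671 at 11 mM (1.55, SE 0.27, adjusted p = 0.000887). Pfkfb2, a regulator of phosphofructokinase, had 518 and 562 at 3 mM and 1484 and 1116 at 11 mM (1.23, SE 0.17, adjusted p = 9.3e-05). Its other probe sets gave 0.22 to 0.82, and with the mean of its probe sets it did not pass. Gpd2, the mitochondrial glycerol phosphate dehydrogenase (0.86, adjusted p = 0.0207), and Ldhb (0.57, adjusted p = 0.0189) rose and the neuronal enolase Eno2 fell (-0.82, adjusted p = 0.0328). Over the settings without 1 array, 4 or 5 members rose and none fell. Ldhb and Eno2 lost their calls without any 1 array (adjusted p of 0.065 to 0.137 and 0.102 to 0.186), and Gpd2 in all but the setting without replicate 2 at 11 mM (0.0938 to 0.264). The transporter Slc2a1 (-0.46, SE 0.31) and Ldha (0.10, SE 0.43) did not pass.

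Transcription factors of the islet were among the genes that rose. Of 14 tested, 8 rose and none fell (57.1% called, against 13.8% of all genes). The median log2 change was 0.75 against 0.04 over all genes. Pdx1, a factor for the beta cell program, had 393 and 416 at 3 mM, 704 and 721 at 5.5 mM and 1103 and 1211 at 11 mM (1.48, SE 0.34, adjusted p = 0.00673). Nkx6-1 had 719 and 760 at 3 mM and 1886 and 1703 at 11 mM (1.26, SE 0.21, adjusted p = 0.000638). Mnx1 rose by 1.29 (SE 0.24), Isl1 by 0.84 (SE 0.14), St18 by 0.92 (SE 0.18), Hnf4a by 0.96 (SE 0.20), Neurod1 by 0.67 (SE 0.15) and Nkx2-2 by 1.06 (SE 0.34). For each of the 8 the arrays at 5.5 mM lay between the other groups. Pax6 (0.57, SE 0.21), Foxa2 (0.36, SE 0.23) and Insm1 (0.15, SE 0.24) did not pass.

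When 1 array was left out, 5 to 7 of these factors passed. Pdx1 did not without replicate 1 at 3 mM (adjusted p = 0.0658) nor without replicate 2 at 11 mM (0.0556), Neurod1 without replicate 1 at 11 mM (0.0585) and Nkx2-2 without any 1 of the 4 (0.127 to 0.192). Hnf4a lost its call without replicate 1 at 3 mM (0.0887). After scaling to the hybridization controls none of the 14 passed, with a median of 0.38 where that of all genes was -0.28.

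The gene of insulin 2 did not pass the test. Ins2 had signals of 3622 and 5085 at 3 mM, 3223 and 3083 at 5.5 mM and 5068 and 3500 at 11 mM, and the groups overlapped (log2 change -0.03, SE 0.29, adjusted p = 0.973). Iapp, which encodes amylin, had 8818 and 9462 at 3 mM and 11947 and 9781 at 11 mM (0.24, SE 0.19). Ucn3, a marker of mature beta cells, had 2007 and 1606 at 3 mM and 4202 and 4021 at 11 mM (1.19, SE 0.39, adjusted p = 0.0464) and lost its call without any 1 array (0.131 to 0.222). Ins1 and Mafa are not named by the annotation and were not analysed here.

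Of 17 tested genes of prohormone processing and the granule, 3 rose and none fell (17.6% called, against 13.8% of all genes). Pcsk1, the convertase that opens the first cleavage of proinsulin, had 463 and 471 at 3 mM, 639 and 681 at 5.5 mM, 1841 and 1456 at 11 mM and 1855 and 1810 in fresh islets (1.78, SE 0.18, adjusted p = 7.18e-06). Ptprn2, a granule membrane protein, rose by 0.56 (SE 0.13, adjusted p = 0.00719), but not without replicate 1 at 3 mM (0.0853) or at 11 mM (0.0597). The zinc transporter Slc30a8 went from 3294 and 3118 to 6346 and 4934 without passing (0.80, SE 0.38, adjusted p = 0.185).

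Genes of granule release rose as well, with 41.7% of the list called against 13.8% of all genes. Of 24 tested exocytosis genes, 9 rose and 1 fell, with a median of 0.43, and 6 or 7 rose with single arrays left out. After scaling to the hybridization controls none passed. Sytl4, which binds Rab27a on the granule, had 896 and 995 at 3 mM, 1299 and 1480 at 5.5 mM and 3246 and 2254 at 11 mM (1.50, SE 0.15, adjusted p = 6.59e-06). Its partner Rab27a rose by 0.83 (SE 0.13), Rab3d by 1.23 (SE 0.20), Syt13 by 0.96 (SE 0.13) and the priming factors Cadps by 0.91 (SE 0.18) and Cadps2 by 1.03 (SE 0.16), and these 6 passed without any 1 array. Rab3a (0.93), Cplx2 (1.25) and Myrip (0.97) rose and the fusion protein Stx3 fell (-0.50), with adjusted p of up to 0.123, 0.137, 0.129 and 0.21 when single arrays were left out. The core fusion genes Snap25 (0.16, SE 0.18) and Vamp2 (0.63, SE 0.46) did not pass.

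Of 17 tested ion channel and pump genes, 4 rose and none fell (23.5% called, against 13.8% of all genes). The calcium pump gene Atp2a3 had 583 and 715 at 3 mM, 1284 and 1117 at 5.5 mM and 1865 and 1826 at 11 mM (1.49, SE 0.19, adjusted p = 6.1e-05). Cacna1c, the pore of an L-type calcium channel, rose by 1.17 (SE 0.23, adjusted p = 0.00187), though another of its probe sets gave -0.44, and its call was lost without replicate 1 at 3 mM (0.0566). Trpm5 (1.16) and Scn9a (0.69) rose and lost their calls without any 1 array (0.0862 to 0.192 and 0.115 to 0.182). The 2 parts of the potassium channel that ATP closes, Kcnj11 (-0.08, SE 0.25) and Abcc8 (0.42, SE 0.27), did not pass.

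Of 12 tested receptor genes, 3 rose and 1 fell (33.3% called, against 13.8% of all genes). The glucagon receptor Gcgr had 127 and 94 at 3 mM and 411 and 336 at 11 mM (1.63, SE 0.43, adjusted p = 0.0163). Igf1r rose by 0.83 (SE 0.20) and Vipr1 by 0.83 (SE 0.25), and the insulin receptor Insr fell by 0.56 (SE 0.15). Gcgr, Vipr1 and Insr did not pass without any 1 array (0.059 to 0.117, 0.0695 to 0.179 and 0.0523 to 0.141), nor did Igf1r without replicate 1 at 3 mM (0.121) or at 11 mM (0.0938). The incretin receptors Glp1r (1.08, SE 0.40, adjusted p = 0.08) and Gipr (0.83, SE 0.28, adjusted p = 0.0567) did not pass.

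Genes that ChREBP is known to activate, and the lipogenic genes beside them, also rose. Of 25 tested, 10 rose and none fell (40% called, against 13.8% of all genes), with a median of 0.59. Txnip, an arrestin-like inhibitor of thioredoxin and of glucose uptake, had 364 and 319 at 3 mM, 266 and 336 at 5.5 mM, 1305 and 1037 at 11 mM and 3123 and 1912 in fresh islets (1.72, SE 0.21, adjusted p = 3.08e-05). Its arrays at 3 and 5.5 mM overlapped. Its relative Arrdc4 had 60 and 68 at 3 mM and 106 and 111 at 11 mM (0.64, SE 0.18, adjusted p = 0.0235), but another probe set of it gave -0.78. Mlxipl, which encodes ChREBP, had 1421 and 1192 at 3 mM and 2618 and 2361 at 11 mM (0.93, SE 0.25, adjusted p = 0.0179).

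Among the enzymes of fatty acid synthesis, the desaturase Scd2 rose by 1.46 (SE 0.26, adjusted p = 0.000957), from 415 and 542 to 1205 and 1478. Its other probe sets gave 0.25 to 0.43. Scd1 (1.04), the elongases Elovl6 (0.83) and Elovl5 (0.83), the fatty acid synthase Fasn (0.94) and the citrate lyase Acly (0.72) rose too, while Acaca (0.63, SE 0.21, adjusted p = 0.0507) did not pass. Only Txnip and Scd2 of the 10 passed without any 1 array. The count of the list was 2 without replicate 1 at 3 mM, 3 without replicate 2 at 3 mM, 4 without replicate 1 at 11 mM and 5 without replicate 2 at 11 mM. After scaling to the hybridization controls none of the list passed. Other probe sets of Acly ran from -0.62 to 0.92.

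The E-box core CACGTG is part of the element to which ChREBP is known to bind. In the window from 250 bases before to 50 after the annotated start it was found in 5 of the 19 list members with a RefSeq window (26.3%), searching both strands, and in 11.6% of tested genes and 8.09% of all genes with a window. Genes that rose held it in 12.5% and genes that fell in 13.7%. In the other lists the share ran from 0% (0 of 19 cell cycle genes, for example) to 33.3% (4 of 12 genes of cyclins and inhibitors, for example). It was 31.2% of clock genes and 27.8% of cholesterol genes, so a share of this size is not particular to the ChREBP list. The sites of the 3 members that both hold it and rose are shown with 20 bases on each side and the motif in capitals, at chr7:68749406-68749451 on the minus strand, chr9:77917184-77917229 on the plus strand and chr5:135089772-135089817 on the plus strand of GRCm38.p6.
Arrdc4: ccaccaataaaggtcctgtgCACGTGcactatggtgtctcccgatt
Elovl5: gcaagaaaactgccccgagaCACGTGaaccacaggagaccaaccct
Mlxipl: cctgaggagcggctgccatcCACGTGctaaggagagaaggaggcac
The other 2, Khk (log2 change -0.09) and Mlx (0.32), did not pass, and the window of Txnip held none. The match is of letters only, and binding was not measured.

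Cholesterol synthesis moved in the same direction, with 6 of 22 tested genes that rose, none that fell and a median of 0.53. In this list 27.3% were called, against 13.8% of all genes. Tm7sf2, a sterol reductase, had 54 and 53 at 3 mM and 149 and 135 at 11 mM (1.18, SE 0.25, adjusted p = 0.00313). Idi1, an isomerase of the pathway, had 90 and 115 at 3 mM, 96 and 130 at 5.5 mM and 312 and 266 at 11 mM (1.37, SE 0.32, adjusted p = 0.00686). Stard4 (0.72), Nsdhl (0.64), Hmgcs1 (0.77) and the regulator Srebf1 (0.91) also rose, while Srebf2 (0.58, SE 0.31) and Sqle (0.27, SE 0.22) did not pass. Without 1 array 1 to 3 passed, fewest without replicate 1 at 3 mM, and Tm7sf2 was the member that passed in all 4 settings. None passed after scaling to the hybridization controls.

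Genes that carry proteins from the endoplasmic reticulum to the Golgi rose too. Of 24 transport genes 8 rose and none fell (33.3% called, against 13.8% of all genes). A change above 0 was seen in 23 of them, with a median of 0.46. The cargo receptor Surf4 had 836 and 900 at 3 mM and 1804 and 2069 at 11 mM (1.14, SE 0.19, adjusted p = 0.000628). Sar1b (0.74), Sec61a1 (0.74), Sec23b (0.63), Ssr4 (0.70), Spcs2 (0.53), Sec13 (0.53) and Sec24d (0.48) rose with it. Leave-one-out fits passed 2 to 6, with Surf4 in all 4 settings and 2 left without replicate 1 at 3 mM or replicate 2 at 11 mM. None passed after scaling to the hybridization controls, with a median of 0.08.

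Of 28 folding genes 2 rose and 1 fell (10.7% called, against 13.8% of all genes), with a median of 0.06. Ero1b, the oxidase of the beta cell endoplasmic reticulum, had 2790 and 2845 at 3 mM, 4160 and 3926 at 5.5 mM and 7811 and 5880 at 11 mM (1.26, SE 0.17, adjusted p = 9.98e-05). Edem2, which marks misfolded proteins for removal, rose by 0.90 (adjusted p = 0.0327), and the chaperone Hspa5 fell by 0.60 (adjusted p = 0.0493). Another probe set of Edem2 gave -0.16, and others of Hspa5 gave -0.36 to 0.03. Xbp1 did not pass (0.30, SE 0.11, adjusted p = 0.0645). The calls of Edem2 (up to 0.295) and Hspa5 (up to 0.373) were lost when single arrays were left out, each with replicate 1 at 3 mM and with replicate 2 at 11 mM among them.

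Of 16 tested genes of the ATF4 and CHOP list, 5 fell (31.2%), 1 rose and 10 did not pass, with a median of -0.19 against 0.04 over all genes. Nupr1, a small stress protein, had 6567 and 5969 at 3 mM, 6709 and 4420 at 5.5 mM, 1846 and 2018 at 11 mM and 1270 and 1375 in fresh islets (-1.69, SE 0.22, adjusted p = 5.78e-05). Ppp1r15a, which restores translation after stress, had 651 and 608 at 3 mM, 318 and 250 at 5.5 mM and 200 and 217 at 11 mM (-1.52, SE 0.25, adjusted p = 0.000451). Trib3, a pseudokinase that CHOP induces, had 1063 and 1039 at 3 mM, 1230 and 1047 at 5.5 mM and 322 and 381 at 11 mM (-1.54, SE 0.35, adjusted p = 0.00604). In Ppp1r15a the drop was already present at 5.5 mM (adjusted p = 0.0389), and in Nupr1 and Trib3 the arrays at 5.5 mM overlapped with those at 3 mM.

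Chac1, a glutathione-degrading enzyme that ATF4 is known to induce, went the other way. Its signals were 498 and 545 at 3 mM, 897 and 778 at 5.5 mM, 960 and 1280 at 11 mM and 299 and 417 in fresh islets (1.07, SE 0.25, adjusted p = 0.00822). Atf4 itself had 3246 and 3501 at 3 mM and 3687 and 3988 at 11 mM and did not pass (0.19, SE 0.14, adjusted p = 0.442), and its other probe sets ran from -0.37 to 0.92. Atf3 fell (-1.17, SE 0.36, adjusted p = 0.0349), and Cebpb did not pass (-0.84, SE 0.33, adjusted p = 0.102). Ddit3, Nupr1 and Ppp1r15a passed without any 1 array, Trib3 did not without replicate 1 at 3 mM (0.0572) or at 11 mM (0.0566), Chac1 not without replicate 1 at 3 mM (0.0854) or replicate 2 at 11 mM (0.107), and Atf3 in none of the 4 (0.0537 to 0.249). After scaling to the hybridization controls 3 of the 5 falls passed and the rise of Chac1 did not.

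**Figure D3:**
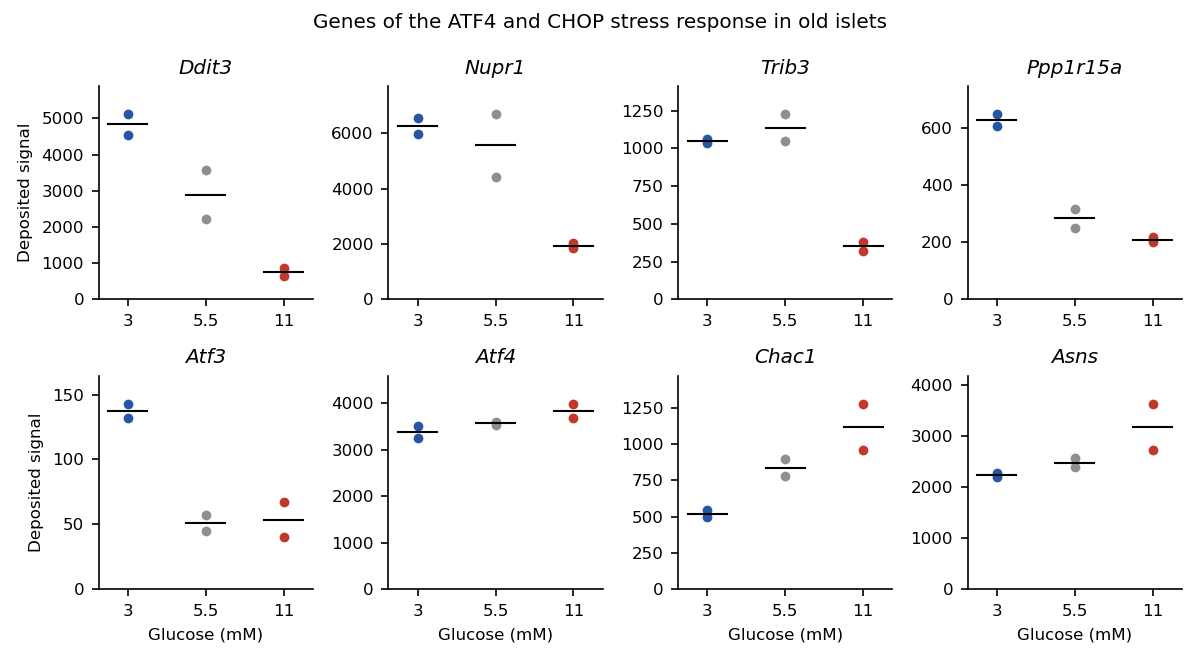
Deposited signal (y axis, from 0) of 8 genes against glucose concentration (x axis, mM), with 1 point per array and a bar at the mean of the 2 arrays. Ddit3, Nupr1, Trib3, Ppp1r15a and Atf3 are lower at 11 mM than at 3 mM, while Chac1 and Asns are higher and Atf4 differs little.

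ATF4 and CHOP bind an element read here as TGATGNAA on either strand. It was found in the promoter windows of 5 of 14 genes of this list (35.7%) 4 of 16 genes of amino acid synthesis and transport (25%) and 5 of 12 tRNA synthetase genes (41.7%), none of which passed the test, against 2.75% of tested genes and 4.51% of all genes with a window. Among genes that rose the share was 2.74% and among those that fell 2.56%. The sites are shown for genes that changed, with 20 bases on each side and the motif in capitals, because genes with the same element moved in opposite directions. Trib3 (chr2:152344019-152344066, minus strand), Nupr1 (chr7:126625553-126625600, minus), Atf3 (chr1:191183416-191183463, minus) and Got1 (chr19:43524680-43524727, minus) fell, and Chac1 (chr2:119351029-119351076, plus) and Asns (chr6:7693205-7693252, minus) rose.
Trib3: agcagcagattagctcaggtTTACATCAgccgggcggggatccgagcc
Nupr1: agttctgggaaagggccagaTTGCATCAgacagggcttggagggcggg
Atf3: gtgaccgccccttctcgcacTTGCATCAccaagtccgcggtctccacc
Got1: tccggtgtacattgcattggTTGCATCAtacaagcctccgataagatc
Chac1: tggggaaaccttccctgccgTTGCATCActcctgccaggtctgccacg
Asns: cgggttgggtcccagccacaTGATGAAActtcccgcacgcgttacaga
Nupr1, Atf3, Got1 and Chac1 carry the same 8 letters. The windows of Ddit3 and Ppp1r15a held no match, and binding was not measured.

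Amino acid genes and tRNA synthetases, many of them ATF4 targets, held both rises and falls. Of 21 tested genes of amino acid synthesis and transport, 3 rose and 1 fell (19% called against 13.8% of all genes). Beside Cbs, the transporter Slc38a2 (0.56, SE 0.11, adjusted p = 0.0024) and the asparagine synthetase Asns (0.49, SE 0.16, adjusted p = 0.0414) rose, and the transaminase Got1 fell (-0.88, SE 0.25, adjusted p = 0.0245). Psat1 (0.98, SE 0.41) and Slc3a2 (-0.69, SE 0.24) did not pass. Of 18 synthetases Qars (0.73) and Lars (0.52) rose and Kars (-0.87) and Rars (-0.54) fell (22.2% called). Other probe sets of Slc38a2 gave -0.26 to 0.11, and with the mean of its probe sets it did not pass (0.14). The calls of Slc38a2, Asns, Got1, Qars, Lars and Rars were lost without replicate 1 at 3 mM, and that of Kars without replicate 2 at 11 mM. Qars also lost its call without replicate 2 at 11 mM, and Lars without replicate 1 at 11 mM. Of the leave-one-out settings, Got1 and Rars passed only without replicate 1 at 11 mM and Asns only without replicate 2 at 11 mM.

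Noncoding genes whose introns hold small nucleolar RNAs fell together, and it was the list with the largest share of falls. Of 14 tested, 8 fell and 1 rose, with a median of -0.89, against 6.03% of all genes that fell. Snhg12 had 746 and 763 at 3 mM, 517 and 400 at 5.5 mM, 240 and 254 at 11 mM and 209 and 216 in fresh islets (-1.55, SE 0.17, adjusted p = 1.27e-05). Snhg6 had 1595 and 1354 at 3 mM, 984 and 834 at 5.5 mM and 360 and 499 at 11 mM (-1.76, SE 0.19, adjusted p = 1.27e-05). In these, as in Zfas1, the groups stood in the order of the glucose concentration. Snhg17 (-1.36), Snhg5 (-1.09) and Snhg8 (-0.68) fell as well, and Gas5 did not pass (-0.54, SE 0.19, adjusted p = 0.0732, with other probe sets at -0.52 to 1.4).

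Snhg11 was the host that rose (0.87, adjusted p = 0.0395), and it lost its call without any 1 array (0.109 to 0.192). Without 1 array 5 to 7 of the hosts fell, and 5 still did after scaling to the hybridization controls. Snhg8 lost its call without replicate 1 at 3 mM (0.116), replicate 2 at 3 mM (0.0782) or replicate 1 at 11 mM (0.159), and Snhg5 without replicate 1 at 3 mM (0.0614) or replicate 2 at 11 mM (0.0594).

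Nucleolar and growth genes linked to MYC fell alongside. Of 19 tested, 6 fell and none rose (31.6% called, against 13.8% of all genes), with a median of -0.54. Gnl3, nucleostemin, had 1372 and 1360 at 3 mM, 767 and 845 at 5.5 mM and 539 and 702 at 11 mM (-1.13, SE 0.21, adjusted p = 0.00112). Nucleolin, Ncl, had 2449 and 2333 at 3 mM and 1540 and 1209 at 11 mM (-0.80, SE 0.14, adjusted p = 0.000857). Nolc1 (-0.89), Nop58 (-1.05) and Npm1 (-0.62) completed the count with Myc, while Cad did not pass (0.85, SE 0.33). Other probe sets of Nolc1 gave -0.54 to 0.02. Without 1 array 4 or 5 passed, and 2 did after scaling to the hybridization controls. Nop58 lost its call without any 1 array (0.0845 to 0.254) and Npm1 without replicate 1 at 11 mM (0.0519).

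Heat shock genes were lower at 11 mM. Of 17 tested, 8 fell and 1 rose (52.9% called, against 13.8% of all genes), with a median of -0.63. Hspa8, the constitutive chaperone of the cytosol, had 7724 and 8170 at 3 mM, 5503 and 5462 at 5.5 mM, 3682 and 4326 at 11 mM and 3935 and 3593 in fresh islets (-0.99, SE 0.18, adjusted p = 0.000941). The mitochondrial chaperonin Hspd1 had 2938 and 2948 at 3 mM and 1966 and 1546 at 11 mM (-0.75, SE 0.14, adjusted p = 0.00128). Ahsa1 (-0.93), Hsph1 (-0.82), Dnajb1 (-0.88), Hspa4l (-0.63) and Hspe1 (-0.61) fell, and Dnajb4 rose (0.72). Another probe set of Ahsa1 gave -0.11, and others of Dnajb4 gave 0.02 to 0.04. Hspa1b had 1730 and 2945 at 3 mM, 323 and 2477 at 5.5 mM, 289 and 722 at 11 mM and 1781 and 810 in fresh islets, and its replicates at 5.5 mM lay far apart.

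With single arrays left out 2 to 5 of the heat shock genes fell, fewest without replicate 1 at 3 mM, and 1 fell after scaling to the hybridization controls. Hspa8 and Hspd1 passed in all 4 leave-one-out settings. Ahsa1 lost its call without replicate 1 at 3 mM (0.0786), Hsph1 without that array (0.0747) or replicate 2 at 11 mM (0.0714), and Hspe1 and Dnajb4 without any 1 array (0.119 to 0.198 and 0.0553 to 0.302). Hspa4l lost it without replicate 1 at 3 mM (0.197), replicate 1 at 11 mM (0.0574) or replicate 2 at 11 mM (0.129), and Dnajb1 without replicate 1 or 2 at 3 mM (0.0614 and 0.0527) or replicate 1 at 11 mM (0.0527).

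Genes that FoxO factors and low fuel are known to induce also fell, though the typical member did not. Of 21 tested, 7 fell and 1 rose (38.1% called, against 13.8% of all genes), while the median was 0.18. The insulin signalling adaptor Irs2 (-0.88, adjusted p = 0.0393), the repressor Bcl6 (-1.04, adjusted p = 0.00552), Klf15 (-1.02, adjusted p = 0.00656), Sirt1 (-0.64, adjusted p = 0.0224) and Pdk4 (-1.05, adjusted p = 0.0115) fell together with Depp1. Pdk4, which holds back glucose oxidation, had 554 and 563 at 3 mM and 206 and 329 at 11 mM. Sesn3 rose (0.89, adjusted p = 0.0109). The number that fell was 0 without replicate 1 at 3 mM, 1 without replicate 1 at 11 mM, 3 without replicate 2 at 11 mM and 5 without replicate 2 at 3 mM. Irs2, Bcl6, Klf15, Sirt1, Pdk4 and Sesn3 each lost their call without replicate 1 at 3 mM, and each also did without another array.

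Metal handling changed on both sides. Of 15 tested genes of metallothionein and zinc transport, 3 rose and 2 fell (33.3% called, against 13.8% of all genes). Mt2, a metallothionein, had 6406 and 6561 at 3 mM, 6157 and 5329 at 5.5 mM, 1888 and 2506 at 11 mM and 2522 and 2291 in fresh islets (-1.57, SE 0.25, adjusted p = 0.000477). Its close relative Mt1 had 7192 and 7978 at 3 mM and 3749 and 4344 at 11 mM without passing (-0.91, SE 0.42, adjusted p = 0.174). Mt1 did pass in 3 of 16 alternative settings. The zinc exporter Slc30a1 fell (-0.90, adjusted p = 0.0179), and the zinc importer Slc39a10 (1.10, adjusted p = 0.000102), Slc30a7 (0.83) and Slc39a1 (0.73) rose. Slc39a1 lost its call without any 1 array (0.0613 to 0.139) and Slc30a1 without replicate 1 at 3 mM (0.179) or either array at 11 mM (0.0545 and 0.126).

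In the lists of energy and oxygen metabolism the share of members called ran from 5% to 26.7%, against 13.8% of all genes. Of 15 hypoxia genes 3 fell and 1 rose (26.7% called), among them the prolyl hydroxylase P4ha1 (-1.25, SE 0.24, adjusted p = 0.00187), P4ha2 (-0.90) and Bhlhe40 (-0.85), against the rise of Ankrd37 (0.83). Of 71 respiratory chain genes 5 fell and 2 rose (9.86% called), with a median of 0.01, and of 20 fat oxidation genes Pdk4 fell and Hadh rose (0.79, adjusted p = 0.00517). Of 19 glycogen genes Stbd1 and Ppp1r3c (-0.94) fell and the phosphatase subunit Ppp1r3d rose (1.04, SE 0.19, adjusted p = 0.00101). Of 20 antioxidant genes 1 fell, the catalase gene Cat (-0.85). P4ha1, Stbd1 and Ppp1r3d passed whichever array was left out, and Ankrd37 and Ppp1r3c in none of the 4 settings. P4ha2 and Bhlhe40 lost their calls without replicate 2 at 3 mM, and P4ha2 also without replicate 2 at 11 mM. Hadh lost its call without replicate 1 at 3 mM or at 11 mM. Of the leave-one-out settings, Cat passed only without replicate 1 at 11 mM.

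Of 45 proteasome genes 6 fell (13.3%, against 6.03% of all genes) and 2 rose. Psme3 had 532 and 390 at 3 mM, 198 and 186 at 5.5 mM and 128 and 136 at 11 mM (-1.67, SE 0.21, adjusted p = 5.49e-05). Another of its probe sets gave -0.02. Of 45 ribosomal protein genes Rps2 (-1.03) and Rpl10a (-0.44) fell (4.44%, against 6.03% of all genes). Of 18 clock genes Nfil3 (-1.34, adjusted p = 0.00419) and Bhlhe40 fell and Tef rose (0.81), 16.7% called against 13.8% of all genes. Another probe set of Tef gave -0.1. Of 15 dual specificity phosphatases Dusp4 fell and Dusp14 rose (0.91, adjusted p = 0.00267), 13.3% called. Among 14 neuropeptide genes Pdyn rose (7.14% called), and among 21 immediate early genes Nfil3 was the 1 that fell (4.76% called). None of the 11 tested genes that beta cells normally keep low passed in limma (2 at an unadjusted p under 0.05). Tef did not pass without any 1 array (0.08 to 0.164) and Nfil3 not without replicate 2 at 11 mM (0.068).

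No proliferation gene passed in old islets. None of 22 tested cell cycle genes passed in limma (1 at an unadjusted p under 0.05), with a median of -0.03. A filter on the 8 old arrays kept 14 of them, so the others passed the filter only through young arrays. Genes so dim in old islets had little room to pass, and their changes cannot tell whether proliferation differed. Mki67, the proliferation marker, had signals of 18 and 15 at 3 mM, 14 and 27 at 5.5 mM, 7 and 4 at 11 mM and 10 and 12 in fresh islets, all near the bottom of the range (-0.60, SE 0.33, adjusted p = 0.259). Ccna2 (0.02, SE 0.24) and Top2a (-0.02, SE 0.29) had changes near 0, and Mcm2 had 163 and 72 against 251 and 281 (1.17, SE 0.49, adjusted p = 0.13). Of 16 cyclins and cyclin inhibitors, 3 rose and 1 fell (25% called, against 13.8% of all genes). Ccnd1, the early cyclin, rose from 194 and 255 to 601 and 715 (1.49, SE 0.20, adjusted p = 8.89e-05). Ccnd2 (0.58) and the inhibitor gene Cdkn2c (0.62) rose, and the repressor gene Bmi1 fell (-0.85, SE 0.13, adjusted p = 0.000391). Ccnd1 and Bmi1 passed whichever array was left out. Of the leave-one-out settings, Ccnd2 passed only without replicate 2 at 11 mM and Cdkn2c only without replicate 1 at 11 mM.

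**Figure D4:**
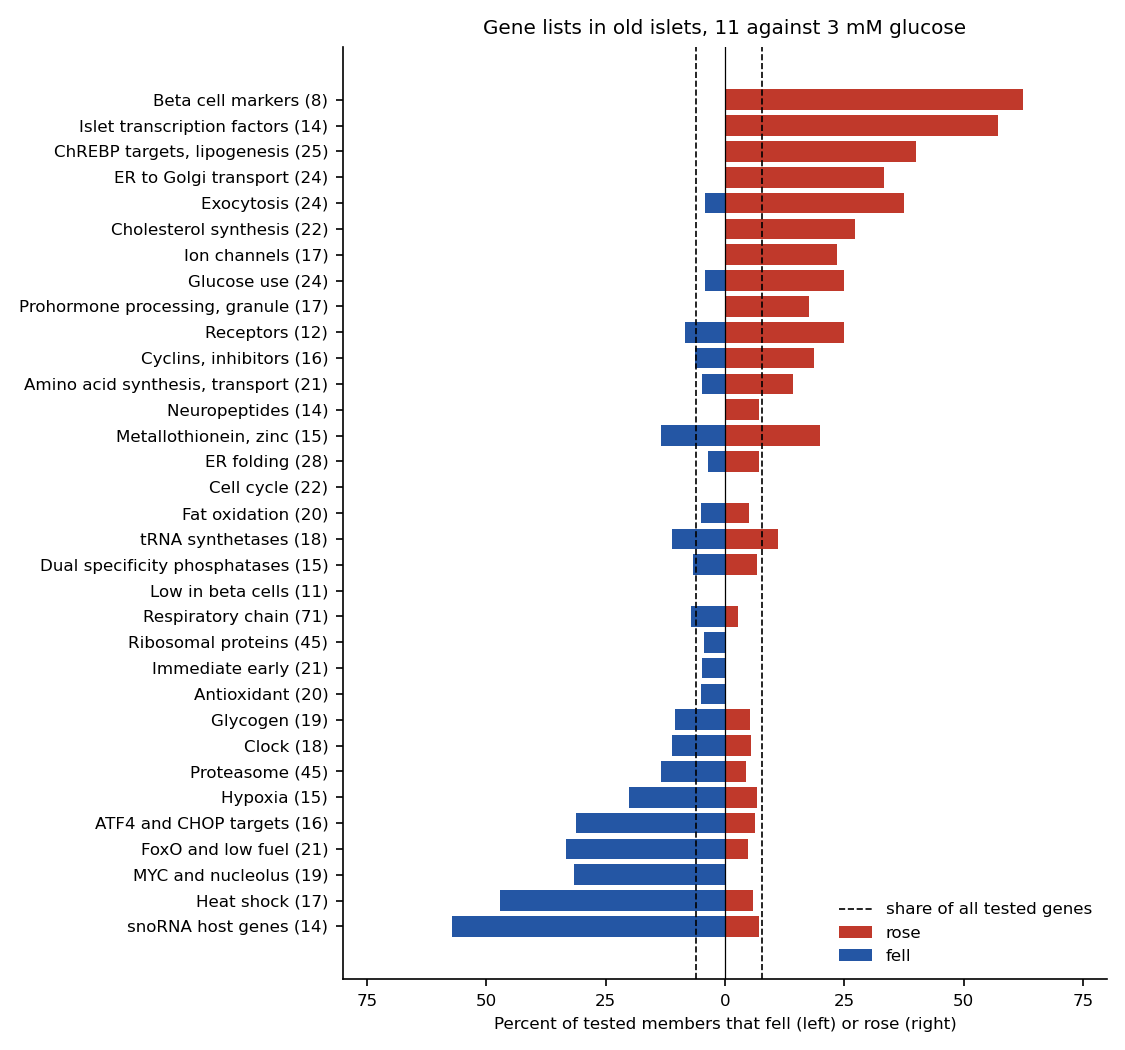
Percent of the tested members of each gene list (number tested in brackets) that rose (red, to the right) or fell (blue, to the left) at 11 against 3 mM glucose. Dashed lines mark the shares among all 12580 genes, 7.76% for rises and 6.03% for falls, and the lists farthest beyond them are beta cell markers with 5 of 8 that rose and small nucleolar RNA hosts with 8 of 14 that fell.

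The response was set beside that of young islets at 3 and 11 mM with the array set as a factor, since the young 3 mM arrays differ from the old ones in the 5' to 3' ratio of the Gapdh control. The difference of the responses passed the test for 18 genes (0.143%), with the old response higher for 13 (0.103%) and lower for 5 (0.0397%). Mki67 had signals of 49 and 46 in young islets at 3 mM and of 121 and 246 at 11 mM in the same array set. The old minus young response was -2.18 on the log2 scale (SE 0.37, adjusted p = 0.0218). Mki67 passed the filter only through young arrays, and its old signals (18 and 15 at 3 mM, 7 and 4 at 11 mM) were near the bottom. The old part of this difference could therefore hardly be measured. Ccna2 (-1.43, adjusted p = 0.0879) and Top2a (-1.53, adjusted p = 0.118) did not pass the test of this difference.

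Nupr1 had 5044 and 6232 in young islets at 3 mM and 346 and 594 at 11 mM, so that its fall was smaller in old islets by 1.89 (SE 0.30, adjusted p = 0.0218). Entpd2 fell less as well (difference 1.47, SE 0.29, adjusted p = 0.0469), with 1350 and 2220 at 3 mM in young islets. The lysosomal gene Cln3 (1.37), the sulfotransferase gene Sult1c2 (1.43) and the proteasome factor gene Psmd9 (1.10) fell in young islets and had changes of -0.10, -0.31 and -0.09 in old ones. Tob1, an antiproliferative gene, rose in young islets (1.39) and had 1217 and 1127 at 3 mM and 1326 and 1372 at 11 mM in old ones (difference -1.19, SE 0.20, adjusted p = 0.0218). Atp5md fell in old islets but had a change of -0.25 in young ones (difference -1.92, SE 0.38, adjusted p = 0.0469), and Taf13 (-0.96) and Cdc37l1 (-0.83) were the remaining genes with a lower response.

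Differences of like size in Mt1 (2.14, adjusted p = 0.0586), Mt2 (1.33, adjusted p = 0.129), Trib3 (1.35, adjusted p = 0.24) and Ddit3 (1.20, adjusted p = 0.0969) did not pass. The 18 calls depend on single arrays, with 0 left without replicate 1 of old islets at 3 mM, replicate 2 of old islets at 11 mM or replicate 2 of young islets at 3 mM. Age and array set cannot be told apart beyond what the young 11 mM arrays of both sets show.

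**Figure D5:**
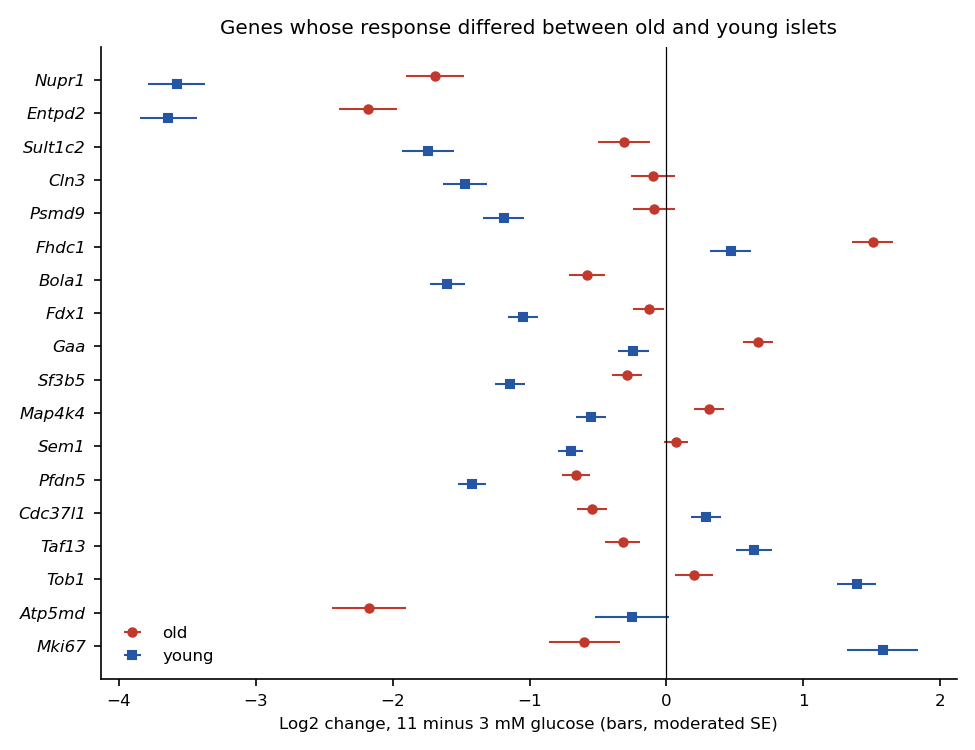
Log2 change from 3 to 11 mM glucose (x axis, with bars of 1 moderated SE) in old islets (red circles) and young islets (blue squares) for the 18 genes whose responses differed, with the array set in the model. Mki67 is at -0.60 in old and 1.58 in young islets, and Nupr1 at -1.69 and -3.58.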

How the data were processed

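RNA of the 26 islet samples was extracted with Trizol and amplified through a pair of cDNA synthesis cycles, per the labels' protocols, and each sample has its own Affymetrix array. Each deposited value is the intensity of a probe set, not log-transformed, which the authors computed in MAS5 (named in the submitters' processing notes, version not given). The mean after trimming 2% at each end was 150.0 to 150.01 on every array, so all had been brought to 1 level. Detection calls were not analysed here. The platform annotation gives 1 gene symbol to 34945 of 45101 probe sets, several to 932 (left out) and none to 9160, with 64 controls. Through Entrez identifiers 34741 received the current symbol of a RefSeq table (GRCm38.p6), which served only for names.

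Values were taken as log2(value + 16) with no further scaling, which understates changes of dim genes. A probe set was kept if it exceeded the median of its array on at least 2 arrays (23047 did), and the brightest stood for its gene. A mean for each of 12 groups was fitted to all 26 arrays with limma 3.58.1 in R 4.3.3 (intensity trend, 14 residual and 5.33 prior degrees of freedom), so that the spread of the old islets is pooled with that of the other groups. Benjamini-Hochberg adjustment ran over all 12580 genes, with a threshold of 0.05. The difference between the old and the young response was fitted with the array set (5' to 3' ratio of the Gapdh control above or below 0.5) as a fixed factor (13 residual and 7.02 prior degrees of freedom). The procedure was tested on simulated data. Alternatives changed the offset, filter, scaling, probe set rule, trend, arrays fitted, array set and replicate block, and left out single arrays. Scaling to the hybridization controls was added after the data were seen.

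The members and the 32 pathway and 13 marker lists were chosen with earlier results of these data known. Named genes were the 20 largest rises and falls among genes past the threshold without overlap between the groups (clone and model names not printed), from each list up to 6 members by adjusted p, 9 genes fixed by name with other list members where their value is given, and the 5 largest differences between old and young in each direction. Same-numbered arrays of the old groups were checked for pairing: their deviations from the group means correlated at 0.056 to 0.196 over 6 pairs of groups, so the numbers were not taken to pair the samples. Promoter windows are RefSeq sequences of GRCm38.p6.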

Additional observations from a re-analysis of the deposited data

Results flagged for a closer look

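For 11 named genes the response to 11 against 3 mM glucose differed between old and young islets by the test of the difference itself (limma with the array set as a factor). The old minus young response, on the log2 scale, was 1.89 for Nupr1, 1.47 for Entpd2, 1.43 for Sult1c2, 1.37 for Cln3, 1.1 for Psmd9 and 1.03 for Fhdc1. It was -2.18 for Mki67, -1.92 for Atp5md, -1.19 for Tob1, -0.96 for Taf13 and -0.83 for Cdc37l1. The value for Mki67 rests on old signals near the bottom of the range, and the gene passed the filter only through young arrays. Fhdc1, which encodes a protein of the formin homology family, rose in old islets by 1.51 and in young islets by 0.47. Taf13, a subunit of a general transcription factor, had changes of -0.32 in old islets and 0.64 in young ones, and Cdc37l1, a relative of an Hsp90 cochaperone, of -0.54 and 0.29. Cdc37l1, Cln3 and Psmd9 each have 1 other probe set that gave old islets a change of the opposite sign (0.13, 0.34 and 0.41).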

How the results depend on the processing

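The count of 1734 genes stayed within 1.5 times of its value with an offset of 1 or 64, no filter, a filter on the old arrays, quantile normalization, the mean of probe sets, no intensity trend and a replicate block (1493 to 1797). With the replicate block, which the pairing check did not back, it was 1667 (936 higher and 731 lower). It rose to 3090 with the array set as a fixed factor, 3385 from the 8 old arrays alone and 2689 from the 4 arrays compared, and was 540 to 948 with single arrays left out. After scaling to the hybridization controls, an alternative chosen after seeing the data, it was 131 (22 higher and 109 lower). With the array set factor, the 8 old arrays or the 4 arrays compared, the log2 changes stayed as in the main fit and only their estimated spread differed. The median of the beta cell list, for example, was 1.22 in each. The young 11 mM group, whose spread is pooled in the main fit, holds arrays of both sets. The cause of the differences in count was not tested.

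The 18 differences between old and young became 33 with an offset of 64, 8 with the mean of probe sets, 6 with no trend, 48 with the replicate block (31 higher and 17 lower), 2 after scaling to the controls, 1 with no array set factor and 0 to 21 with single arrays left out. With the mean of probe sets the sign turned for Syt7 (-0.48), Arrdc4 (-0.07) and Gas5 (0.27, not passed either way). Mt1, Slc30a8, Cebpb, Abcc8, Vamp2, Mcm2 and Slc3a2 did not pass in the main fit but did in 3 of 16 alternative settings. Ins2, Iapp, Kcnj11, Snap25 and Atf4 passed in none of them. With 2 arrays a group and deposited values already scaled, a change of total RNA cannot be seen, and dim genes have understated changes.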

Other observations

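Of the 24 tested genes of glucose use, 11 (45.8%) had a higher signal in replicate 2 than in replicate 1 at all 3 concentrations in old islets, against 16.7% of all genes tested. Slc2a2 and Gpd2 were lower in replicate 2 at all 3. The genes given here were chosen after their values were seen. Pgk1, phosphoglycerate kinase, had signals of 1021 and 1967 for replicates 1 and 2 at 3 mM, 1264 and 3042 at 5.5 mM and 1563 and 2617 at 11 mM. Aldoc, an aldolase, had 86 and 240, 128 and 306, and 196 and 325. Pfkp, Pfkl and Tpi1 were likewise higher in replicate 2 at all 3 concentrations, while Ldha was at 3 and 5.5 mM and not at 11 mM (141 and 123).

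Fresh old islets stood apart from all cultured ones in immediate early genes. Fos had signals of 7199 and 5258 in fresh islets, against 40 and 74 at 3 mM and 59 and 66 at 11 mM. Egr1 had 5958 and 4165 in fresh islets, against 57 and 91 at 3 mM and 67 and 83 at 11 mM.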
